A study of Homo sapiens with 24 samples.

Results

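The nuclear-encoded subunits of the oxidative phosphorylation (OXPHOS) complexes were followed in H9 human embryonic stem cells (hESCs) through early differentiation, with and without an shRNA against RUNX1. Members were chosen by gene symbol, as the genes named for subunits of complexes I to V, with assembly factors and pseudogenes left out. Earlier results of these data were known when this was done. By that rule 76 transcript clusters, the sets of array probes assigned to a gene locus, belonged to exactly 1 subunit gene and were tested among 23781 clusters with 1 symbol. They stand for 75 genes, since NDUFB2 has 2 clusters, 1 of them with no gene identifier. Complex I had 33 clusters, complex II 3, complex III 8, complex IV 15 and complex V 17. A further 9 clusters that a subunit shares with another symbol are described apart, and 13 assembly factor, 7 pseudogene and 2 antisense clusters were left out.

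Complexes I to IV pass electrons from NADH and succinate to oxygen in the inner mitochondrial membrane and, except for complex II, pump protons as they do so. Complex V, the ATP synthase, uses the return flow of protons to make ATP. Each complex but the second also holds subunits encoded by mitochondrial DNA, which were not analysed here, and the nuclear subunits are divided into catalytic core proteins and accessory or supernumerary ones. Pluripotent stem cells are known for relying strongly on glycolysis, and respiration is known to gain weight when they differentiate.

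Total RNA was measured on 24 human transcriptome arrays, 3 for each of 8 groups. The H9 line was grown feeder-free in mTeSR1, infected with a GIPZ lentivirus for a non-silencing shRNA (shNS) or for 1 shRNA clone against RUNX1 (shRUNX1), and selected with puromycin. Both arms were sampled undifferentiated (0 hr) or after 8, 24 or 72 hr in a medium with fetal bovine serum. The study's methods give the 3 replicates as independent experiments. The sample descriptions letter them A, B and C in shNS and C, D and E in shRUNX1 without saying what the letters mean, so if they name experiments the arms share only C, and only through C can a difference between arms be told apart from one between experiments. Also, with a single shRNA clone an effect of RUNX1 loss and an effect of that clone cannot be told apart. In the bulk RNA, a change in the share of a cell type and a change of RNA per cell cannot be told apart either.

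Signals are normalized log2 values, so a difference of 1 is a doubling, and they are not compared between genes. A subunit counts as called when limma gave an adjusted p (Benjamini-Hochberg, over all 23781 clusters) under 0.05 and a fold change over 1.5, and "at any fold" when it met the first condition only or both. Counts at an unadjusted p under 0.05 have no share of all clusters beside them, so they are not read as particular to the subunits. RUNX1 itself shares its cluster with another transcript and was at 5.92 ± 0.04 (SD, n = 3) in shNS and 5.88 ± 0.09 in shRUNX1 at 0 hr, and at 6.63 ± 0.09 and 6.26 ± 0.19 at 24 hr. Replicate arrays correlated at a Pearson r of 0.987 to 0.997 across clusters, which are not independent replicates. The cells carried pluripotency RNAs at 0 hr, with POU5F1 at 11.64 and SOX2 at 13.94 in shNS. Of 8 mesenchymal markers all 8 were called higher at 72 hr in shNS, against 7.3% of all clusters. Of 8 mesendoderm markers 1 was called higher, GATA6, which went from 5.69 to 7.19. Among the others EOMES was at 6.96 and 6.90, and TBXT (5.24 and 5.30) and SOX17 (5.24 and 5.36) were below 6.25, the median over all tested clusters.

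In shNS cells the OXPHOS subunits moved upward as a set over 72 hr, but unevenly between and within complexes. At 72 hr 18 of the 76 clusters were called higher than at 0 hr and 0 lower, where 7.3% of all tested clusters were called higher and 7.77% lower. Among the 11944 clusters at or above the median signal, where nearly all subunits lie, 13% were called higher. The median log2 change was 0.29 for the subunits and 0.01 for all tested clusters, and 58 of the 76 had a positive change. At any fold 32 were higher and 5 lower, against 13.6% and 15.5% of all clusters. The 72 hr arrays lay above the 0 hr arrays without overlap for 41 subunits and below for 6, where 20.8% and 22% of all clusters did so. The rise spread over complexes III (median 0.36), I (0.34) and V (0.33), with smaller medians in complexes II (0.14) and IV (0.10). Without shNS replicate 2 of 72 hr the median of complex III was 0.22 and that of complex I 0.26, without replicate 1 of 72 hr that of complex II was 0.08, and without replicate 1 of 0 hr that of complex IV was 0.19, so their order is not firm. Without shNS replicate 2 of 72 hr 11 of the 18 were called, and without replicate 2 of 0 hr 12.

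**Figure D1:**
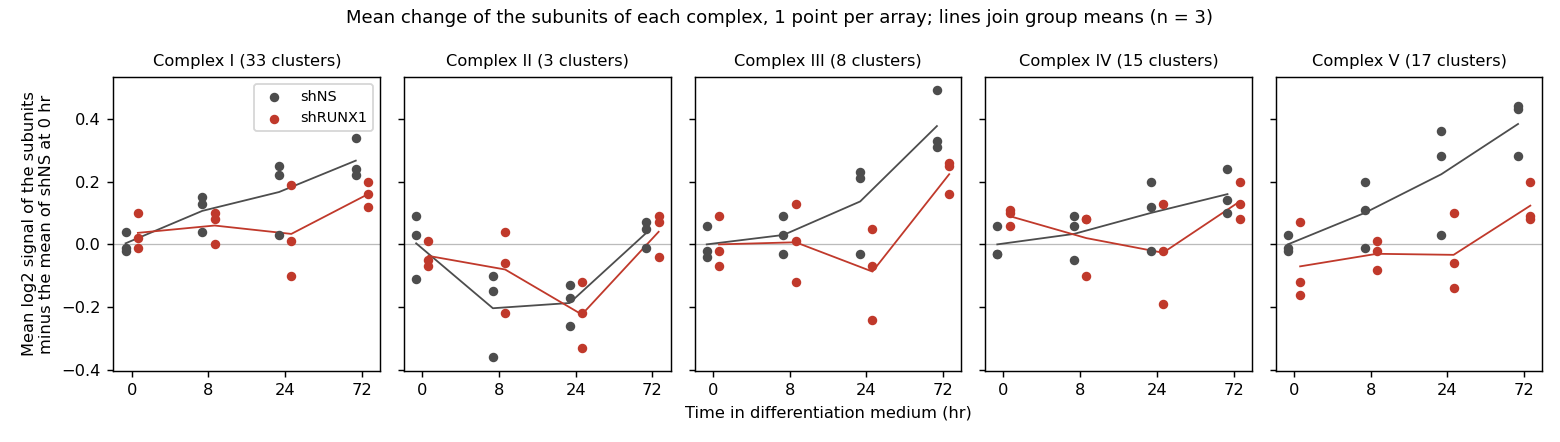
Mean log2 signal of the subunits of each complex on each array, as a difference from the shNS mean at 0 hr (y axis), by time in hr (x axis, evenly spaced), with 1 point per array and lines through the means of 3 arrays. At 72 hr the complex V means of the shNS arrays lie between 0.28 and 0.44 and those of the shRUNX1 arrays between 0.08 and 0.20.

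The change built up with time. The mean over all 76 subunits, set against the shNS mean at 0 hr, was 0.10, 0.12 and 0.00 on the 3 shNS arrays at 8 hr. It was 0.24, 0.20 and 0.00 at 24 hr and 0.26, 0.35 and 0.21 at 72 hr. At 72 hr all 3 arrays thus lay above all 3 arrays of 0 hr (0.02, -0.02 and 0.00), whereas at 8 and 24 hr replicate 3 lay within their range. Called subunits numbered 0 higher and 1 lower at 8 hr, against 4.68% and 3.73% of all clusters, and 3 higher and 1 lower at 24 hr, against 7.72% and 7.94%. At any fold 6 were higher and 3 lower at 8 hr, against 8.15% and 7.91%, and 25 higher and 8 lower at 24 hr, against 14.6% and 15.3%. The count at 24 hr was 13 without shNS replicate 3 of 24 hr and 8 without replicate 1 of 0 hr, and that at 8 hr was 3 without replicate 3 of 8 hr and 2 without replicate 1 of 0 hr.

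The largest rises were in complex V. ATP5MG, the g subunit of the membrane domain that takes part in pairing ATP synthase monomers, had log2 signals of 9.10, 8.98 and 8.93 on the shNS arrays at 0 hr and of 10.07, 10.23 and 9.83 at 72 hr. It rose by 1.04 (SE 0.13, adjusted p = 9.49e-06 from limma) and was already up by 1.01 (SE 0.13, adjusted p = 1.16e-05) at 24 hr, when its arrays read 9.96, 10.18 and 9.89. ATP5PD, the d subunit of the peripheral stalk, took another course. Its shNS arrays read 12.96, 12.95 and 13.18 at 0 hr, 13.42, 13.39 and 13.04 at 24 hr, and 14.14, 14.14 and 13.95 at 72 hr. Its groups overlapped at 24 hr and were well apart at 72 hr, where the rise was 1.04 (SE 0.13, adjusted p = 7.29e-06 from limma).

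Also called higher in complex V were ATP5MJ, a small proteolipid of the membrane domain (0.68, SE 0.14), ATP5F1C, the gamma subunit of the rotating central stalk (0.61, SE 0.11), and ATP5MGL (0.59, SE 0.14). ATP5MGL is a separate gene whose sequence is close to that of ATP5MG, so the probes of both may share RNA and the pair is read with caution. The other peripheral stalk subunits ATP5PB (0.51) and ATP5PF (0.49) passed the adjusted p but not the fold. Of the catalytic head, ATP5F1B, the beta subunit that carries the catalytic sites, passed at a small size (0.30, SE 0.11, adjusted p = 0.0438), while the alpha subunit ATP5F1A was at 12.49 ± 0.07 (SD, n = 3) and 12.58 ± 0.11.

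The 3 genes for the c subunit of the proton-carrying ring differed in sign. ATP5MC3 was higher (0.33, SE 0.11, adjusted p = 0.0339 from limma) and ATP5MC2 lower (-0.44, SE 0.16, adjusted p = 0.0485). ATP5MC1 was at 8.56 ± 0.10 and 8.85 ± 0.22 (SD, n = 3 each). The difference between the genes was not tested.

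In complex I, the NADH dehydrogenase, 8 of 33 clusters were called higher at 72 hr in shNS, 7 of them for accessory subunits. NDUFB3, in the membrane arm, read 7.66, 7.54 and 7.41 at 0 hr and 8.39, 8.82 and 8.46 at 72 hr, a rise of 1.02 (SE 0.18, adjusted p = 0.000241). Its signal was 8.65, 8.60 and 8.19 at 24 hr, so most of the rise was present by then (0.94, SE 0.18). NDUFA1 rose by 0.87 (SE 0.17), NDUFB5 by 0.84 (SE 0.10) and NDUFB6 by 0.71 (SE 0.13), all membrane arm subunits. NDUFAB1, the mitochondrial acyl carrier protein that also serves fatty acid synthesis, rose by 0.71 (SE 0.17). NDUFA11 and NDUFB11 rose by 0.59 each, and NDUFA11 was called at 24 hr as well (0.69, SE 0.15), a call that ended on fold (0.58) without shNS replicate 2 of 0 hr.

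The NADH-binding side of complex I did not move as one. NDUFV1, the core subunit that binds NADH and flavin, was called higher (0.59, SE 0.10, adjusted p = 0.000188). NDUFS1, the large iron-sulfur subunit beside it, was lower at 8 hr (-0.28, SE 0.08, adjusted p = 0.0203) and at 24 hr (-0.31, adjusted p = 0.00539), under 1.5-fold both times. Its shNS arrays read 10.49, 10.58 and 10.58 at 0 hr, 10.31, 10.26 and 10.14 at 24 hr and 10.38, 10.38 and 10.38 at 72 hr. Other complex I subunits that passed at any fold in the downward direction at 72 hr were NDUFB9 (-0.41), NDUFA5 (-0.25) and the NDUFB2 cluster with no gene identifier (-0.46). The NDUFB2 cluster with an identifier read 7.11 ± 0.04 at 0 hr and 7.10 ± 0.13 at 72 hr, so the probe sets named for this gene did not move together.

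Complex II, succinate dehydrogenase, is also an enzyme of the TCA cycle, and its catalytic subunit was the only member called lower in shNS. SDHA, the flavoprotein, read 9.08, 9.36 and 9.44 at 0 hr, 8.40, 8.67 and 8.81 at 8 hr, 8.58, 8.64 and 8.68 at 24 hr, and 8.86, 8.91 and 9.03 at 72 hr. Every array of the later times lay below every array of 0 hr. The log2 change was -0.67 (SE 0.13, adjusted p = 0.00108 from limma) at 8 hr, -0.66 (adjusted p = 0.000519) at 24 hr and -0.36 (adjusted p = 0.0418) at 72 hr. The call at 8 hr was lost on fold, at -0.55, without shNS replicate 1 of 8 hr, which left 0 subunits called there, and the call at 24 hr ended on fold, at -0.58, with quantile normalization and without shNS replicate 3 of 0 hr. The membrane anchors moved differently, since SDHC was higher at 72 hr (0.32, SE 0.12, adjusted p = 0.0497) and SDHD read 9.06 ± 0.01 and 9.21 ± 0.13 (SD, n = 3). The iron-sulfur subunit SDHB was not analysed here.

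In complex III, which passes electrons from ubiquinol to cytochrome c, the core proteins UQCRC1 and UQCRC2 were both higher at 72 hr in shNS. UQCRC1 read 9.73, 9.58 and 9.74 at 0 hr and 10.55, 10.71 and 10.31 at 72 hr, a rise of 0.84 (SE 0.12, adjusted p = 1.94e-05 from limma). UQCRC2 rose by 0.49 (SE 0.11, adjusted p = 0.00141), under 1.5-fold. UQCRHL, a gene nearly identical to the hinge protein gene UQCRH, was called higher (0.79, SE 0.15), and the cluster that UQCRH and UQCRHL share was higher as well (0.53, SE 0.13, adjusted p = 0.00693), so which of these genes gave the signal is uncertain. The adjusted p of the shared cluster is from a separate limma fit to all 67528 clusters. CYC1, cytochrome c1, was at 8.17 ± 0.18 and 8.33 ± 0.06, within its spread. The Rieske protein UQCRFS1 was not analysed here.

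Complex IV, cytochrome c oxidase, had 3 of 15 clusters called higher at 72 hr in shNS. COX7A2L, which takes part in joining complexes III and IV into supercomplexes, read 8.15, 8.12 and 8.16 at 0 hr, 8.33, 8.36 and 8.46 at 8 hr, 8.63, 8.55 and 8.61 at 24 hr, and 8.72, 8.80 and 8.69 at 72 hr. The groups were in order of time with no overlap, and the rise at 72 hr was 0.60 (SE 0.08, adjusted p = 2.2e-05). COX4I1, the ubiquitous form of a regulatory subunit, rose by 0.61 (SE 0.11, adjusted p = 0.000262) and COX6B1 by 0.59 (SE 0.20, adjusted p = 0.032). COX5A, which binds near COX4I1, was at 11.56 ± 0.10 and 11.59 ± 0.14 (SD, n = 3).

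The tissue-restricted isoforms of complex IV stayed dim in every group. COX4I2, COX6A2, COX7A1, COX7B2 and COX8C, known from lung, muscle or testis, and NDUFS7 of complex I were the 6 subunit clusters with a mean below 6.25, and none of the 6 passed the adjusted p in any of the 10 comparisons of groups. COX7A1, the heart and muscle form, ranged from 4.67 to 4.93 over the group means. Of the forms used in most tissues, COX7A2 read 9.47 ± 0.10 at 0 hr and 9.80 ± 0.14 at 72 hr in shNS, COX7B 9.75 ± 0.09 and 10.09 ± 0.33, and COX6A1 14.19 ± 0.35 and 13.84 ± 0.10. COX8A varied more between replicates than most members, with an SD of 0.21 to 0.55 within groups.

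**Figure D2:**
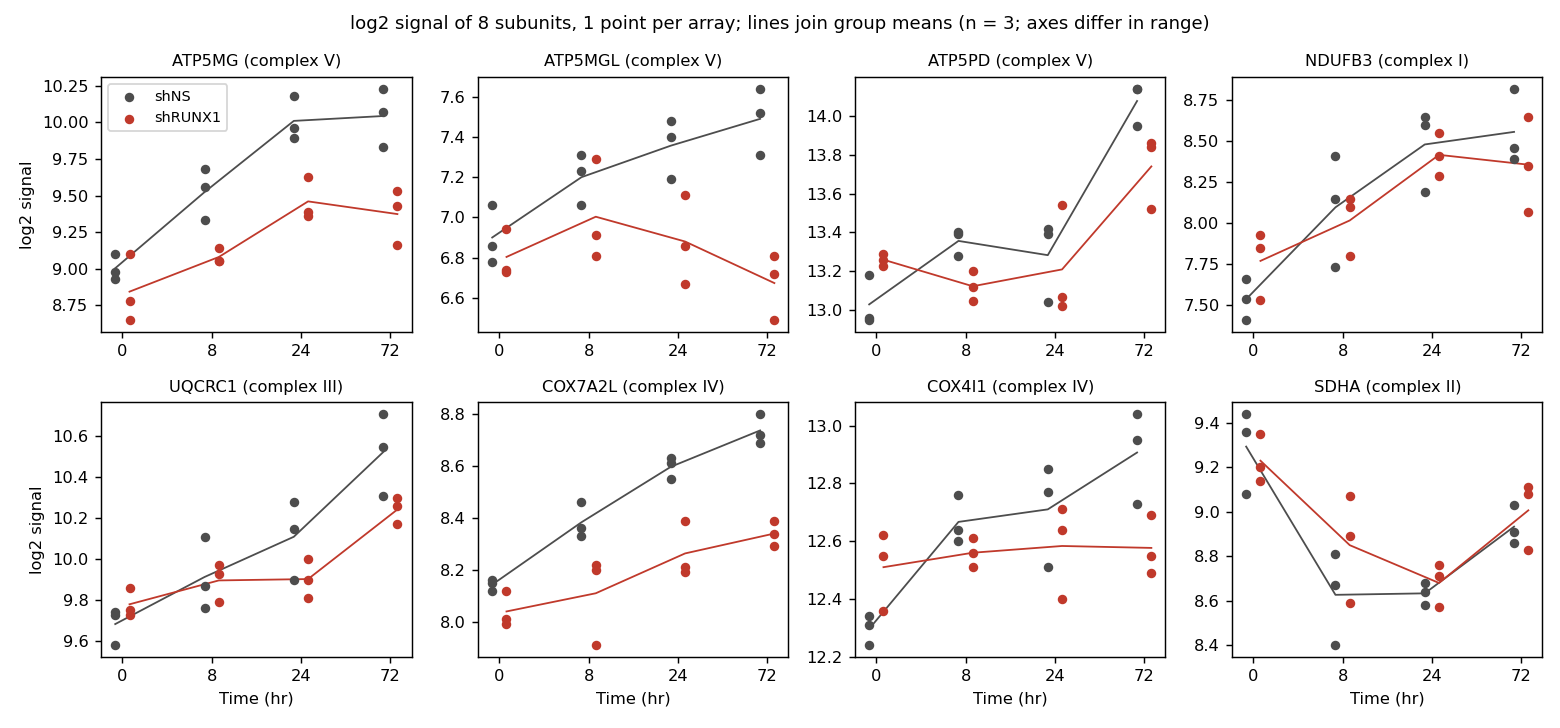
log2 signal (y axis, a range of its own in each panel) of 8 subunits by time in hr (x axis, evenly spaced), with 1 point per array in shNS (grey) and shRUNX1 (red) and lines through the means of 3 arrays. ATP5MG rises in both arms and is lower in shRUNX1 at 72 hr, while SDHA is lowest at 8 or 24 hr in both arms.

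The upstream sequences of the members with the 3 largest rises, and of SDHA as the member that fell, are shown because these genes moved in opposite directions. Promoters of 250 bases before to 50 bases after the start site were taken from RefSeq (GRCh38.p14), which gave one for 60 of the 75 genes. Capitals mark matches, on either strand, to the motifs searched: GCGCATG, part of the NRF1 site, CCGGAAG for ETS factors such as GABPA, AAGATGG for YY1, AAGGTCA for the estrogen-related receptors, TGTGGT for RUNX factors and CCAAT for NFY. NRF1, GABPA, YY1 and the estrogen-related receptors are known regulators of nuclear genes for respiration. Each run is 5′ to 3′ on the strand of its gene.
ATP5MG, chr11:118401356-118401655, plus strand: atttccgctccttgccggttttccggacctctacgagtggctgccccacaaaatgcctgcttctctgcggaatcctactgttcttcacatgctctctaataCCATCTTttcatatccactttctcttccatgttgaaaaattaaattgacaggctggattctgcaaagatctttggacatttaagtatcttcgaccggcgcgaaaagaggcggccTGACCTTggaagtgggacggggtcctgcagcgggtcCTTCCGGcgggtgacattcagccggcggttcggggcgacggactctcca
ATP5PD, chr17:75046920-75047219, minus strand: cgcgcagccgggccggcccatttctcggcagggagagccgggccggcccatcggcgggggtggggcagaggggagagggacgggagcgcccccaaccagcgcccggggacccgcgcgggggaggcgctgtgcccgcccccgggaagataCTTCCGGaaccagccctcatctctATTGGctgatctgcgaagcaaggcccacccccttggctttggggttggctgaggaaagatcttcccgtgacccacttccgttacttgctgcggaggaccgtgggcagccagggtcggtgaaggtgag
NDUFB3, chr2:201071751-201072050, plus strand: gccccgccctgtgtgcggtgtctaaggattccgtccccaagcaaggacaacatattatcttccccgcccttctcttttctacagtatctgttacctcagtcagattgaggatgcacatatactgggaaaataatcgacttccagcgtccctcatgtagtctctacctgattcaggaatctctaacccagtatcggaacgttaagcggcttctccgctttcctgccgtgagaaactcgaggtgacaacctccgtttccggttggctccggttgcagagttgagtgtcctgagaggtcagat
SDHA, chr5:218070-218369, plus strand: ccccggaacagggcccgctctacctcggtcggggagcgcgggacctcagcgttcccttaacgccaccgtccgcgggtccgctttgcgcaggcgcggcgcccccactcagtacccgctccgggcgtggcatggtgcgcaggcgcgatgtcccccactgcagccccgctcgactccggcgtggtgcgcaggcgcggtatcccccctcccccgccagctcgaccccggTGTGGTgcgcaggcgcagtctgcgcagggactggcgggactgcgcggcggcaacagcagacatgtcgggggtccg

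The ATP5MG window held CCGGAAG on the minus strand just past the start, AAGGTCA 35 bases before it and AAGATGG 149 bases before it, all on the minus strand. The ATP5PD window held CCGGAAG 101 bases and CCAAT 77 bases before the start, both on the minus strand. The NDUFB3 window held 0 matches, and SDHA held TGTGGT 25 bases before the start. Over the 60 subunit promoters GCGCATG was in 20.0% against 4.67% of all 27305 promoters in the table, AAGATGG in 23.3% against 6.06%, CCGGAAG in 26.7% against 10.7%, AAGGTCA in 13.3% against 3.97%, TGTGGT in 18.3% against 13.1% and CCAAT in 33.3% against 35.7%. Of the 15 promoters of subunits called higher at 72 hr in shNS, 1 held GCGCATG, 5 held CCGGAAG, 2 held AAGATGG, 2 held AAGGTCA, 4 held TGTGGT and 4 held CCAAT. No match overlapped another in the printed windows. A match is a stretch of letters and not a measured binding site.

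**Figure D3:**
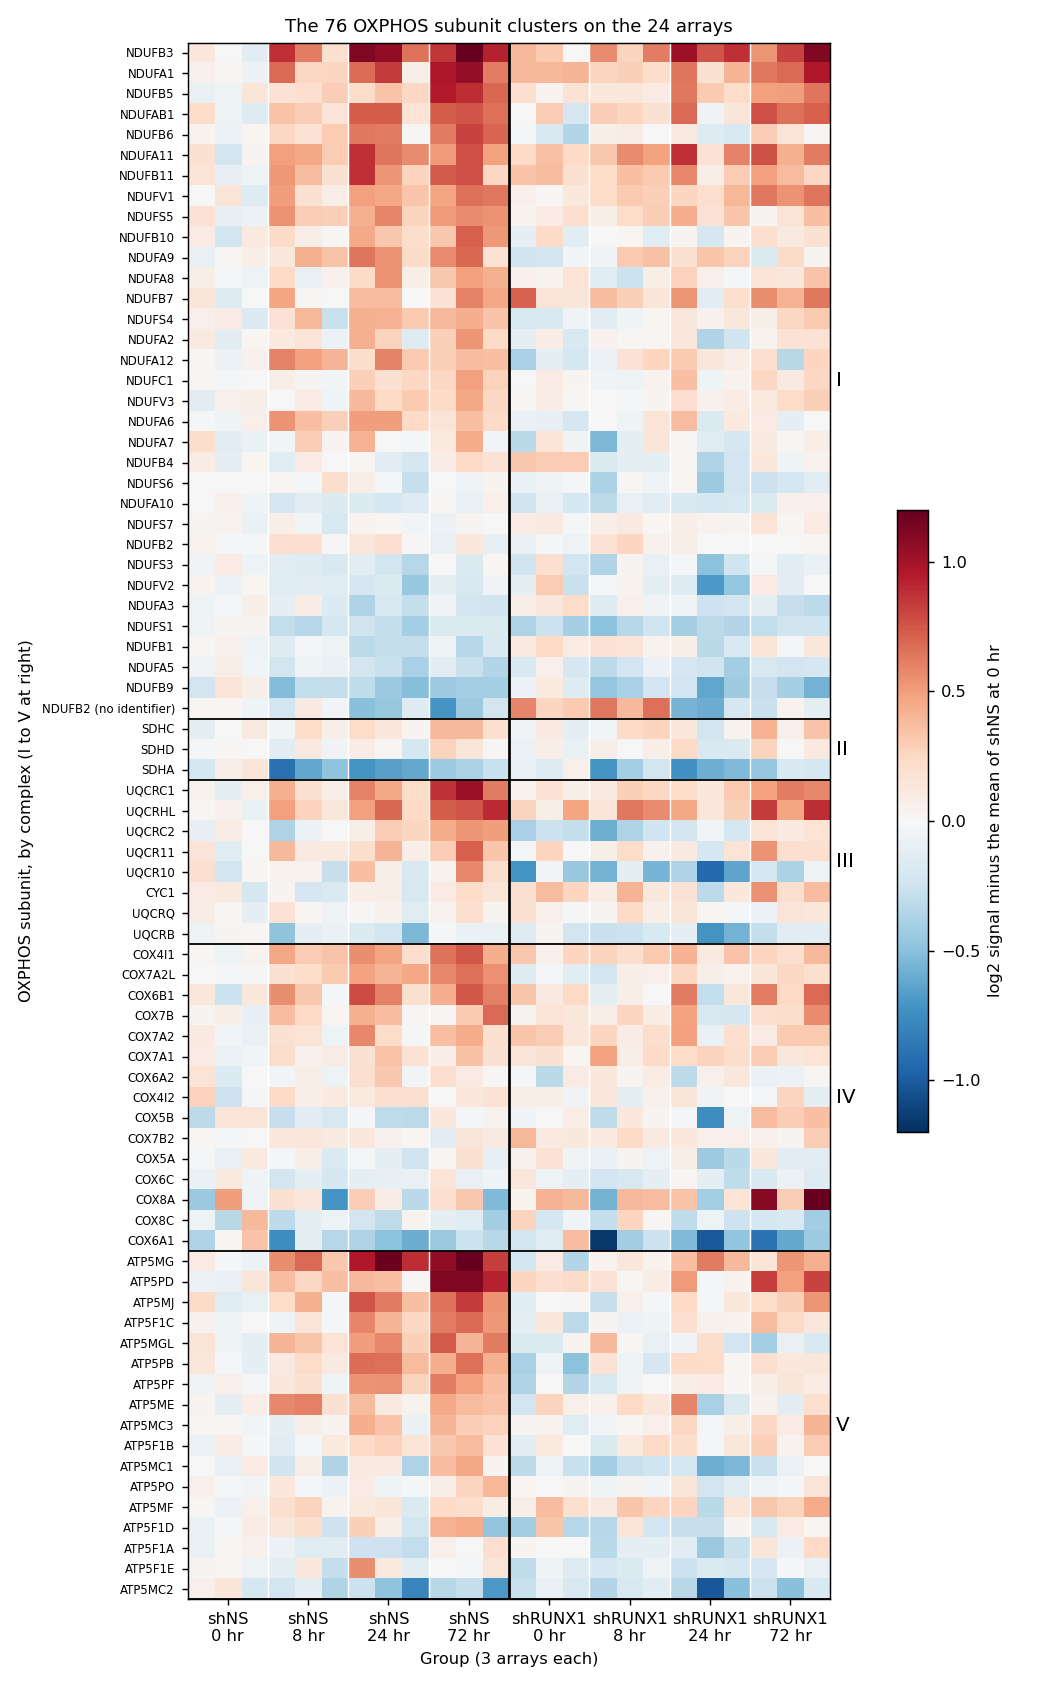
log2 signal of the 76 subunit clusters (rows, by complex and by their change from 0 to 72 hr in shNS) on the 24 arrays (columns, 3 per group), as a difference from the shNS mean at 0 hr, in colour from -1.2 (blue) to 1.2 (red). The subunits at the top of complexes I, III, IV and V redden with time in shNS, and SDHA is blue at 8 and 24 hr.

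In shRUNX1 cells the subunits moved in the same direction by 72 hr, with a median log2 change of 0.13, and few were called. At 72 hr 2 were called higher, NDUFAB1 (0.68, SE 0.17, adjusted p = 0.00967 from limma) and NDUFB3 (0.59, SE 0.18, adjusted p = 0.03), and 0 lower, against 3.76% of all clusters in each direction. At any fold 13 were higher and 4 lower, against 7.75% and 8.3%, and 58 had a positive change. Of the 18 subunits called higher in shNS, 17 had a positive change in shRUNX1, with a median of 0.38 against 0.70 in shNS, and 10 passed the adjusted p there. The 18 were chosen on their shNS change, so the smaller shRUNX1 median is a description and not a comparison of the arms. Without shRUNX1 replicate 3 of 0 hr 0 were called, without replicate 2 of 0 hr 4, and without replicate 3 of 72 hr 1, and NDUFB3 was lost without replicate 2 of 72 hr too (adjusted p = 0.0702).

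**Figure D4:**
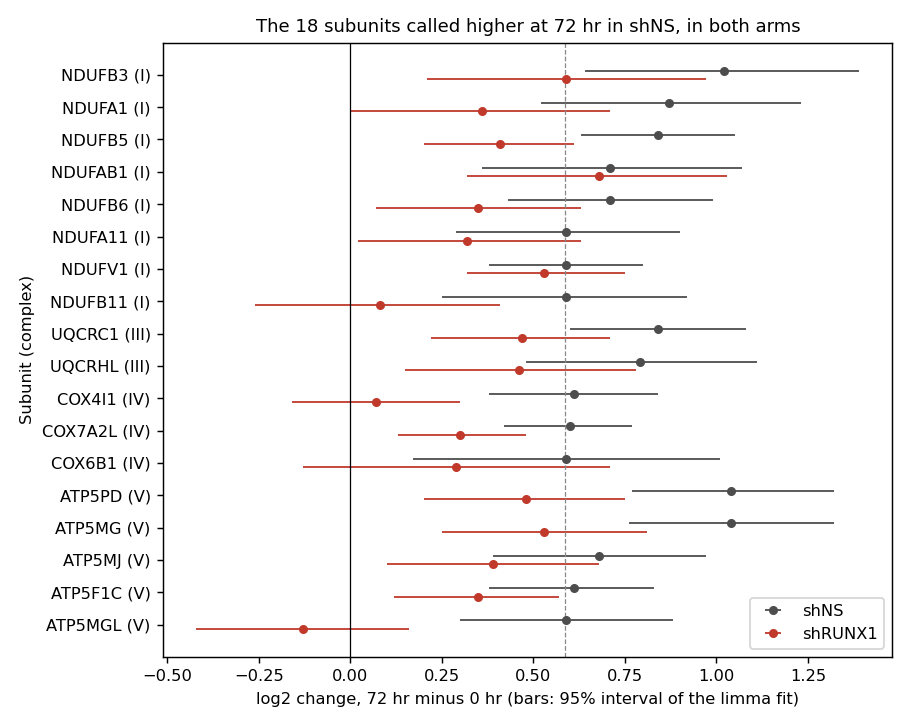
log2 change from 0 to 72 hr (x axis) of the 18 subunits called higher in shNS (y axis, complex in brackets), in shNS (grey) and shRUNX1 (red), with 95% intervals of the limma fit and the 1.5-fold threshold as a dashed line. The shNS points, which chose the rows, lie between 0.59 and 1.04, and the shRUNX1 points between -0.13 and 0.68.

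At 24 hr in shRUNX1 2 subunits were called higher and 2 lower, where 5.25% and 5.7% of all clusters were. At any fold 6 were higher and 9 lower, against 9.93% and 12.3%. NDUFB3 rose by 0.65 (SE 0.18) and ATP5MG by 0.62 (SE 0.13). The NDUFB2 cluster with no gene identifier fell from 8.59, 8.26 and 8.32 to 7.45, 7.41 and 7.80, with no overlap, by 0.83 (SE 0.14, adjusted p = 0.000263). COX6A1, the form of its subunit used outside muscle, fell from 13.97, 14.04 and 14.56 to 13.66, 13.18 and 13.71, by 0.68 (SE 0.23, adjusted p = 0.04), a call that also ended with median centring (adjusted p = 0.0593) and over all transcript clusters (0.0614). Of these 4 calls, 1 remained without shRUNX1 replicate 3 of 0 hr and 2 remained without replicate 2 of 24 hr. The mean over all subunits on the 24 hr shRUNX1 arrays was 0.13, -0.15 and -0.03, a wide spread.

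At 8 hr in shRUNX1 0 subunits were called by limma, against 3.84% and 3.17% of all clusters, with 9 of 76 at an unadjusted p under 0.05. At any fold 0 were higher and 1 lower, against 7.59% and 7.25%. That subunit was NDUFB4, in the membrane arm of complex I, with signals of 6.96, 6.94 and 6.94 at 0 hr and 6.46, 6.52 and 6.53 at 8 hr (-0.44, SE 0.09, adjusted p = 0.0021). It was lower at any fold at 24 hr (-0.51) and 72 hr (-0.27) too. In shNS the same subunit was at 6.63 ± 0.10 (SD, n = 3) at 0 hr and 6.61 ± 0.12 at 8 hr. SDHA read 9.20, 9.14 and 9.35 at 0 hr and 8.59, 8.89 and 9.07 at 8 hr, with no overlap (-0.38, SE 0.13, adjusted p = 0.0507), and was lower at 24 hr at any fold (-0.55, SE 0.13, adjusted p = 0.00396). With the replicate number as a block, COX6A1 was called lower at 8 hr (-0.62, adjusted p = 0.0347), as was the case without shRUNX1 replicate 3 of 8 hr (-0.79, adjusted p = 0.0434).

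At 0 hr 0 of 76 were called, against 0.53% of all clusters higher and 0.471% lower, with 9 at an unadjusted p under 0.05, and the median log2 difference was 0.00. For 65 of the 76 the 95% interval of the difference lay within 1.5-fold in both directions. The arms lay apart with shRUNX1 higher for 15 subunits and lower for 7, where 15% and 9.84% of all clusters did so. With the letter as a block 2 were called higher, NDUFA1 (0.66, adjusted p = 0.0459) and NDUFB11 (0.60, adjusted p = 0.0365), which read 0.40 and 0.30 without it. At any fold 0 were higher and 1 lower, against 1.28% and 1.3%. The latter was NDUFS1, with shRUNX1 arrays at 10.18, 10.29 and 10.15 below shNS arrays at 10.49, 10.58 and 10.58 (-0.34, SE 0.08, adjusted p = 0.0334 from limma). At 8 hr 0 were called, against 0.00421% of all clusters higher and 0% lower, with 7 at an unadjusted p under 0.05. The widest difference at 8 hr was that of the NDUFB2 cluster with no gene identifier (0.62, SE 0.14, adjusted p = 0.19).

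At 24 hr most subunits were lower in shRUNX1 by small amounts that no single test called. The median log2 difference was -0.14, against 0.01 for all tested clusters and -0.05 for those at or above the median signal, and 65 of 76 differences were negative, while 59.2% of the clusters at or above the median signal were. In complex V 17 of 17 were negative, with a median of -0.23, which ran from -0.37, without shNS replicate 3 or shRUNX1 replicate 1 of 24 hr, to -0.12 without shNS replicate 1. For 13 subunits (17.1% of 76) every shRUNX1 array was under every shNS array, and for 0 the reverse held, where these shares of all clusters were 9.99% and 10.3%. By limma 0 were called, against 0.0252% of all clusters higher and 0.0883% lower, with 17 at an unadjusted p under 0.05 and the smallest adjusted p at 0.0835 for ATP5MG. The share of all clusters at that unadjusted p was not computed. Without shRUNX1 replicate 2 of 24 hr the subunit median was -0.04, so the shift depended largely on that array. The clusters at or above the median signal had -0.05 with all arrays. Set against the shNS mean at 0 hr, the subunit mean was -0.15 on that array and 0.13 and -0.03 on replicates 1 and 3. ATP5MG was called when that array was left out (-0.63, adjusted p = 0.0465). Without shNS replicate 3 of 24 hr 3 were called lower, NDUFB6 (-0.71), ATP5MG (-0.61) and UQCR10 (-0.86).

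At 72 hr 2 subunits of complex V were called lower in shRUNX1 and 0 higher, where 1.14% of all clusters were called lower and 0.458% higher. ATP5MGL read 6.49, 6.81 and 6.72 in shRUNX1 against 7.64, 7.31 and 7.52 in shNS, a log2 difference of -0.82 (SE 0.14, adjusted p = 0.0112 from limma). ATP5MG read 9.16, 9.53 and 9.43 against 10.07, 10.23 and 9.83, a difference of -0.67 (SE 0.13, adjusted p = 0.0216). The arms did not overlap for either gene, and since these sequences are close to each other the calls may not be separate. Without shNS replicate 1, shRUNX1 replicate 1 or shRUNX1 replicate 3 of 72 hr both calls ended (adjusted p = 0.0603, 0.0783 and 0.0574 for ATP5MGL), and without shNS replicate 2 that of ATP5MG did (adjusted p = 0.152).

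**Figure D5:**
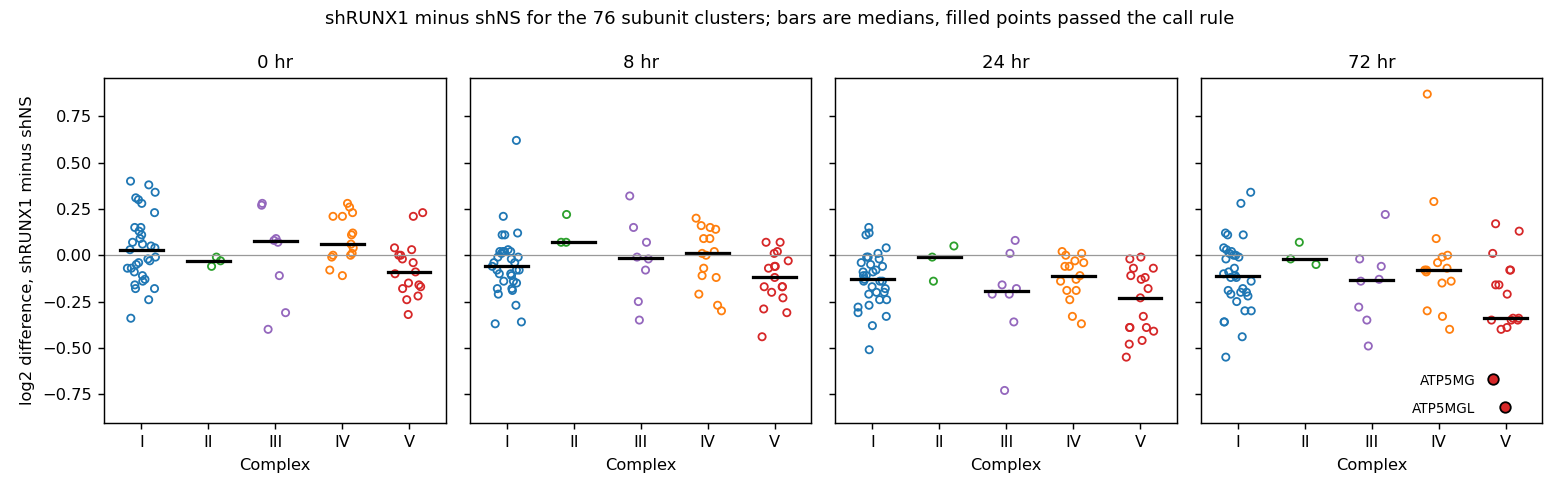
log2 difference of shRUNX1 minus shNS (y axis) for the 76 subunit clusters by complex (x axis) at 0, 8, 24 and 72 hr, with 1 open point per cluster, bars at the medians and filled points for called subunits. The median of complex V is -0.09, -0.12, -0.23 and -0.34 in the order of time, and ATP5MG and ATP5MGL are the filled points at 72 hr.

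At any fold 5 were lower at 72 hr and 0 higher, against 1.81% and 0.929% of all clusters. The 3 beside the ATP5MG pair were below 1.5-fold. They were NDUFB6 (-0.55, SE 0.13, adjusted p = 0.0357), COX7A2L (-0.40, SE 0.08, adjusted p = 0.0238) and ATP5PF (-0.39, SE 0.10, adjusted p = 0.0495). COX7A2L read 8.29, 8.39 and 8.34 in shRUNX1 and 8.72, 8.80 and 8.69 in shNS, 2 sets that lay well apart. Over all subunits the median difference was -0.11 (-0.07 without shNS replicate 2 of 72 hr), with 57 of 76 negative, where 49.6% of the clusters at or above the median signal were negative. The arms lay apart with shRUNX1 lower for 27 subunits (35.5% of 76), 10 of them among the 17 of complex V, where 9.38% of all clusters did so, and with shRUNX1 higher for 3, against 11.6%. In complex V the median difference was -0.34, and by complex the other medians ran from -0.02 (II) to -0.13 (III). Without shNS replicate 2 of 72 hr those of complexes I and IV were -0.06 and -0.02, and that of complex II was 0.04 without shNS replicate 1 and 0.05 without shRUNX1 replicate 2. From 0 to 72 hr the difference between the arms changed by a median of -0.15 in complex V, close to -0.14 in I and -0.12 in IV. The medians of this change were -0.09 in III and 0.01 in II. Without shRUNX1 replicate 2 of 0 hr that of complex V was -0.03.

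Of the ATP synthase at 72 hr, peripheral stalk subunits read ATP5PD 13.74 ± 0.19 in shRUNX1 and 14.08 ± 0.11 in shNS (SD, n = 3 each), ATP5PB 12.20 ± 0.04 and 12.55 ± 0.13, and ATP5PO 8.46 ± 0.12 and 8.68 ± 0.16. None of these 3 passed (adjusted p = 0.15, 0.107 and 0.225 from limma), unlike ATP5PF of the stalk at any fold. At 0 hr ATP5PB (11.73 ± 0.23 in shRUNX1, 12.04 ± 0.13 in shNS) and ATP5PF (8.10 ± 0.21, 8.33 ± 0.05) had lower means in shRUNX1. Their arrays overlapped between the arms, and neither passed, the smallest adjusted p in complex V at 0 hr being 0.146 from limma. The means of ATP5PD (13.26 ± 0.03, 13.03 ± 0.13) and ATP5PO (8.46 ± 0.01, 8.43 ± 0.05) were not lower. At 72 hr the catalytic head subunits read ATP5F1A 12.59 ± 0.16 and 12.58 ± 0.11 and ATP5F1B 14.77 ± 0.15 and 14.85 ± 0.11. The differences of ATP5F1A (0.01, SE 0.10) and of ATP5F1B (-0.08, SE 0.11) from zero did not pass either, and the contrast between head and stalk was not tested. COX8A of complex IV had the highest difference of all members (0.87, SE 0.33, adjusted p = 0.14), with arms that overlapped, and it was called (1.16) without shRUNX1 replicate 2 of 72 hr.

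Whether the arms changed by different amounts from 0 hr was tested as an interaction, and 0 subunits were called at 8, 24 or 72 hr. Over all clusters 0.00421%, 0% and 0.00421% were called in the higher direction and 0% at each time in the lower direction, and 4, 10 and 12 subunits had an unadjusted p under 0.05. For these unadjusted counts the share of all clusters was not computed. For ATP5MGL the difference changed by -0.72 from 0 to 72 hr (adjusted p = 0.116 from limma), for ATP5PD by -0.57 (0.175), for COX4I1 by -0.55 (0.14) and for ATP5MG by -0.51 (0.229). ATP5MGL was called without shRUNX1 replicate 2 of 72 hr (-0.79, adjusted p = 0.0395), and COX4I1 without shRUNX1 replicate 2 of 0 hr (-0.62, adjusted p = 0.0432). Unequal changes in the arms were therefore not shown for any of the 76 in the fit to all arrays.

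At 0 hr the median difference of the mesenchymal markers between shRUNX1 and shNS was -0.24, with 1 of 8 called lower against 0.471% of all clusters. POSTN was higher in shRUNX1 (5.72, against 5.61 in shNS), COL1A1 was at 7.24 in both arms, and the others were lower. The mean over these markers was 7.97 to 8.30 on the shRUNX1 arrays and 8.27 to 8.78 on the shNS arrays, so the arms overlapped. At 8 hr the median was -0.47, and their mean was 9.46 to 9.60 on the shRUNX1 arrays and 9.95 to 10.11 on the shNS arrays. The subunit medians at these 2 times were 0.00 and -0.05. At 72 hr the mean over the 8 mesenchymal genes was 11.76 to 12.08 on the shNS arrays and 9.77 to 11.57 on the shRUNX1 arrays. The median difference was then -1.05, with 3 of 8 called lower against 1.14% of all clusters. At 24 hr their mean was 11.13 to 11.30 and 9.94 to 10.84, with 1 of 8 called lower against 0.0883% of all clusters. The pluripotency markers had a mean of 11.90 to 12.20 in shNS and 12.23 to 12.57 in shRUNX1 at 72 hr, with a median difference of 0.61. Of these 10 markers 0 were called, against 0.458% of all clusters higher and 1.14% lower. NANOG (10.94 in shRUNX1, 11.92 in shNS), POU5F1 (11.93, 12.07) and ZFP42 (12.61, 12.71) were lower in shRUNX1, and the others were higher. At 24 hr the mean was 11.49 to 11.69 and 11.66 to 12.44, with a median difference of 0.32 and 1 of 10 called higher, against 0.0252% of all clusters. Their part in the differences of the OXPHOS subunits was not tested. Of 5 blood and endothelium markers, PTPRC (4.60), SPI1 (4.70) and PECAM1 (3.57) were under 6.25, the median given above, in shNS at 72 hr. KDR (8.58) and CDH5 (6.90) lay above it. From 0 to 72 hr in shNS 1 of the 5 was called higher and 1 lower, against 7.3% and 7.77% of all clusters.

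The 9 clusters that a subunit shares with another symbol gave 1 call at 72 hr in shNS. Their values come from a separate limma fit to all 67528 clusters, with the p adjusted over all of those. The cluster of ATP5MK, a small membrane subunit tied to ATP synthase dimers, and of the microRNA gene MIR1307 rose from 10.33 ± 0.15 to 11.20 ± 0.05 (0.87, SE 0.13, adjusted p = 0.00011), and read 10.67 ± 0.15 in shRUNX1 at 72 hr (-0.53, SE 0.13, adjusted p = 0.0774). The cluster of COX7C, a complex IV subunit, and MIR3607 went the other way. It was called lower at 24 hr in shNS (-0.89, SE 0.17, adjusted p = 0.000864) and in shRUNX1 (-0.84, SE 0.17, adjusted p = 0.00266), and went from 9.74 ± 0.12 at 0 hr to 9.18 ± 0.08 at 72 hr in shNS (-0.55, adjusted p = 0.0274), under 1.5-fold. The probes cannot tell such overlapping transcripts apart. COXFA4, the present symbol of NDUFA4, falls outside the symbol rule and read 9.25 ± 0.10 at 0 hr and 8.93 ± 0.11 at 72 hr in shNS.

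Genes that build and supply the complexes gave calls in both directions. The 7.3% of all clusters called higher and 7.77% lower apply here too. Of 17 complex I assembly factors 2 were called higher and 1 lower at 72 hr in shNS, with a median of 0.04, led by COA1 (-0.87), TIMMDC1 (0.63) and NDUFAF1 (0.61). Of 23 complex IV assembly factors 3 were higher, among them HIGD1A (0.80) and TACO1 (0.75), and 1 lower, COA7 (-1.15), with a median of -0.07. Of 4 factors for complex II, 6 for complex III (median -0.30) and 4 for the ATP synthase, 0 were called in either direction. Of 74 mitochondrial ribosome genes, which serve the subunits encoded in mitochondrial DNA, 6 were higher and 1 lower, with a median of 0.15 and MRPL40 highest (1.07). In the TCA cycle 4 of 16 were higher, among them IDH3A (0.97) and DLST (0.94), and 2 lower, SUCLG2 (-1.23) and OGDH (-0.77).

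Among regulators of mitochondrial genes, 3 of 21 were called higher and 1 lower at 72 hr in shNS. They were CHCHD2 (1.04), MYC (0.93), PPARGC1A (0.90), the coactivator known for driving mitochondrial biogenesis, and POLG2 (-0.68), an accessory subunit of the mitochondrial DNA polymerase. Between the arms at 24 hr 1 of the 17 complex I assembly factors was called, NDUFAF4, lower in shRUNX1 (-0.59, SE 0.11, adjusted p = 0.0452), against 0.0883% of all clusters. At 72 hr, against 1.14% of all clusters, 1 of 15 electron carrier genes, the ubiquinone-binding protein COQ10B, was lower in shRUNX1 (-0.72, SE 0.13, adjusted p = 0.0178), and so was 1 of 19 glycolysis genes, LDHA, lactate dehydrogenase A (-0.64, SE 0.15, adjusted p = 0.0287). At 0 hr, against 0.53% of all clusters higher and 0.471% lower, 1 of 13 hypoxia-linked genes, the mitophagy receptor BNIP3, was higher in shRUNX1 (1.47, SE 0.35, adjusted p = 0.0356), while 1 of 74 mitochondrial ribosome genes, MRPL46 (-0.74), and 1 of 23 complex IV assembly genes, FASTKD2 (-0.64), were lower.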

How the data were processed

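The 24 arrays were placed in 8 groups of 3 by shRNA and time from the sample labels. For each transcript cluster the deposited values are log2 signals, already normalized by the authors. Per the submitters' processing notes they come from RMA in Expression Console; the methods add GC content leveling, a signal-space transformation and Transcriptome Analysis Console 1.0.0.234. No further normalization was applied, and fold sizes depend on these steps.

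Of 67528 clusters, 23781 with exactly 1 gene symbol were tested, and all but 1 of the subunit clusters carried a gene identifier, which was looked up in RefSeq (GRCh38.p14). For the other gene lists the brightest cluster of each gene was used. Members and lists were chosen with earlier results of these data known.

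Group means were fitted to all arrays by limma 3.58.1 in R 4.3.3, with 16 residual degrees of freedom and a variance trend on intensity in eBayes. Tests were two-sided, with Benjamini-Hochberg adjustment over all tested clusters. The 9 clusters shared with another symbol were instead fitted with all 67528 clusters and adjusted over those. A call needed an adjusted p under 0.05 and a fold over 1.5. The script was tested on simulated data. Named subunits are up to 10 called in each direction with the largest change, the 4 of smallest adjusted p where fewer were called, catalytic subunits and isoform sets. Others named for their place in a complex, for passing at any fold, or for a change when an array was left out were chosen after their values were seen.

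Samples share replicate numbers. Deviations from the group means correlated above 0.1 for every same-numbered pair between 0 and 8 hr in shNS (0.295 to 0.527), between 0 and 24 hr in shNS (0.185 to 0.421) and between 0 and 8 hr in shRUNX1 (0.129 to 0.169), which are taken as paired by this check of the data. The reported fit has no term for this pairing, so its p-values and calls for these comparisons are unpaired. A block for the replicate number was run only as an alternative, and it called COX6A1 lower at 8 hr in shRUNX1. The other comparisons had a pair below 0.1. Array medians ran from 6.19 to 6.33, and the number of arrays limits the precision. The results were recomputed after quantile normalization or centring on array medians, without dim clusters, over all clusters, without the trend, with no fold threshold, on the compared arrays alone, by the methods' ANOVA, with a block for the replicate number or for the letter in the descriptions, and without each array in turn. Python 3.11.15 and matplotlib 3.10.9 made the figures.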

Additional observations from a re-analysis of the deposited data

How the results depend on the processing

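Over the alternatives that kept all arrays, the count of subunits called at 72 hr in shNS stayed within 1.5 times its reported value, except with no fold threshold. With no fold threshold the counts were 37 at 72 hr, 33 at 24 hr and 9 at 8 hr in shNS, 17, 15 and 1 in shRUNX1, and 1 at 0 hr and 5 at 72 hr between the arms. With quantile normalization they were 2 at 8 hr and 8 at 24 hr in shNS and 5 at 72 hr in shRUNX1, and the median change at 24 hr was 0.26 in shNS and 0.07 in shRUNX1. With median centring 7 were called at 24 hr in shNS. With only the arrays compared 0 were called between the arms at 72 hr, and 1 at 72 hr in shRUNX1. By the methods' ANOVA, adjusted, 0 were called between the arms at 72 hr, at 8 hr in shNS, and at 24 and 72 hr in shRUNX1. In these 2 settings the adjusted p of ATP5MG between the arms was 0.239 and 0.381. The causes were not tested.

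With the replicate block 1 was called at 8 hr in shRUNX1 (COX6A1), and the counts between the arms were 0, 0, 0 and 2 at 0, 8, 24 and 72 hr. The block changed no other call apart from COX6A1 at 72 hr in shRUNX1 (-0.65, adjusted p = 0.0242). With the letter as the block, where the arms share only the letter C, 2 were called higher in shRUNX1 at 0 hr, NDUFA1 (0.66) and NDUFB11 (0.60). COX6A1 was then called lower in shRUNX1 at 8 hr (-0.62, adjusted p = 0.031 from limma) and at 72 hr (-0.65, adjusted p = 0.0221).

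With each array left out in turn, counts between the arms ran from 0 to 0 at 0 hr, 0 to 0 at 8 hr, 0 to 3 at 24 hr and 0 to 3 at 72 hr. In shNS they ran from 0 to 3 at 8 hr, 3 to 13 at 24 hr (8 without shNS replicate 1 of 0 hr) and 11 to 19 at 72 hr, the lowest without shNS replicate 2 of 72 hr and 12 without replicate 2 of 0 hr, with all 11 and all 12 among the 18. In shRUNX1 they ran from 0 to 1 at 8 hr, 1 to 6 at 24 hr and 0 to 4 at 72 hr. The interaction counts ran from 0 to 1 at 72 hr. The median difference between the arms at 24 hr ran from -0.22 to -0.04. Among values of named subunits under all alternatives 962 kept their direction and side of the threshold, 39 lost and 19 gained a call, and 0 turned. Several alternatives keep the group means of the main fit, so no direction could turn in them. These subunits were also named for the size or adjusted p of their change, so the 0 says little about how firm the directions are. The 6 dim subunits have little signal over background, which limits what can be said of their direction.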

Other observations

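Glycolysis genes were described with the respiratory subunits, since both routes supply ATP. In shNS cells 6 of 19 were called higher at 72 hr and 3 lower, against 7.3% and 7.77% of all clusters, with a median log2 change of 0.36. PFKP, the platelet form of phosphofructokinase, rose by 2.08 (SE 0.25) and PKM, pyruvate kinase, by 1.93 (SE 0.19), while HK2, hexokinase 2, fell by 0.90 (SE 0.15). In shRUNX1 cells 2 were higher, PKM (1.34) and PFKP (1.01), and 2 lower, HK2 (-0.92) and ALDOC (-0.70), against 3.76% of all clusters in each direction. PDK1, the kinase that restrains entry of pyruvate into the TCA cycle, was lower at 72 hr in both arms, by -1.51 (SE 0.31) in shNS and -1.40 (SE 0.31) in shRUNX1. It belongs to the hypoxia-linked list and was the only gene of that list called lower at 72 hr in either arm. Of the 13 genes of that list 4 were called higher in shNS (median 0.38) and 1 in shRUNX1 (median 0.16), against the same shares of all clusters. The arms share no arrays in these changes, and the difference between the arms' changes was not called for any gene of the glycolysis list or the hypoxia-linked list.

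Of the electron carrier genes, COQ10B rose by 1.32 (SE 0.13) and HCCS, which attaches heme to cytochromes c and c1, by 0.91 (SE 0.15) at 72 hr in shNS, 2 of 15 called higher, against 7.3% of all clusters, with a list median of -0.01. BNIP3, higher in shRUNX1 at 0 hr, fell by 2.80 (SE 0.35) from 0 to 8 hr in shRUNX1 and by 1.11 (SE 0.35) in shNS. The shRUNX1 change starts from the same 0 hr arrays, and the difference between these changes was not called. Of the 13 hypoxia-linked genes 4 were called higher and 1 lower at 8 hr in shNS, against 4.68% and 3.73% of all clusters. In shRUNX1 1 was called higher and 1 lower, against 3.84% and 3.17%.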
